A study of Mus musculus with 7 samples.

Results

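Nuclear genes for the subunits of the mitochondrial oxidative phosphorylation (OXPHOS) system were followed in lymphatic endothelial cells of the mouse ear pinna. Members were the entries of the count table whose symbol begins with Nduf followed by a, b, c, s or v, with Uqcr, with Cox4 to Cox8 or with Atp5, together with Sdha, Sdhb, Sdhc and Sdhd. The rule found 90 of 26583 entries with a gene symbol: 42 under complex I names, 4 under complex II, 8 under complex III, 19 under complex IV and 17 under complex V. Of these, 74 code for common subunits, 8 for tissue-restricted or paralogous isoforms and 7 for assembly or accessory factors, and 1 (Cox4nb, now named Emc8) belongs to an endoplasmic reticulum complex and shares only its old name with complex IV.

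RNA sequencing covered 3 libraries from naive ear skin and 4 libraries from BPC melanomas of the ear. Naive replicates 1 and 3 came from BrafCA/+; pten l/l; Cre- mice, and naive replicate 2 combined that genotype with Braf+/+;pten l/l Cre+. The tumour libraries came from BrafCA/+; pten l/l; Cre+ mice, in which an activatable Braf allele and the pten l/l allele meet Cre. Every library therefore carries pten l/l, and naive replicate 2 also holds Cre+ material without BrafCA. Naive replicate 1 pooled both sexes, naive replicate 2 and tumour replicates 3 and 4 were female, and naive replicate 3 and tumour replicates 1 and 2 were male. The sources used here give neither the promoter that drives Cre, nor the sort, nor the number of mice per library. The labels do not say that the libraries of a group are separate animals, so p-values measure only the spread between these libraries. By a tag in their descriptions that was read as a sequencing lane, lane 6 held tumour replicates 1, 2 and 4, lane 7 held naive replicates 1 and 2, and lane 8 held replicate 3 of each group.

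Complexes I and II feed electrons from NADH and succinate into the respiratory chain, complex III passes them to cytochrome c, and complex IV passes them to oxygen. Complexes I, III and IV pump protons as they do so, and complex V (ATP synthase) uses the gradient to make ATP. Most subunits are nuclear genes, and the few encoded by mitochondrial DNA were not analysed here. Lymphatic endothelial cells burn fatty acids as well as glucose, and in mice complex III activity, through Uqcrq, has been tied to the upkeep of lymphatic identity.

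NRF-1 is a transcription factor known to drive nuclear genes for respiration, and promoter stretches with its full palindrome are shown because the symbol rule did not use this feature of the members. RefSeq promoter windows (GRCm38.p6) were matched to 72 members with 78 windows, and the 250 bases before the annotated start were searched on both strands. The NRF-1 palindrome, the half-site GCGCA followed directly by its reverse complement TGCGC, was present in 5 member windows, which is 6.41% against 0.782% of 32851 windows of all genes. Its shorter core GCATGCGC, which the palindrome contains, was present in 11.5% of member windows and in 2.26% of all. The ETS-type motif CCGGAAGT of NRF-2 (GABP) was present in 3.85% of member windows against 2.88% of all, and the YY1 motif AAGATGGCG in 2.56% against 0.606%. The 5 palindromes are printed with 25 bases on each side, 5′ to 3′ on the gene's strand, the palindrome in capitals. They lie at chr4:24897945-24898004 (plus strand, Ndufaf4), chr5:108434415-108434474 (minus strand, Atp5k), chr5:115349086-115349145 (minus strand, Cox6a1), chr15:102671055-102671114 (minus strand, Atp5g2) and chr17:56717677-56717736 (plus strand, Ndufa11).
Ndufaf4: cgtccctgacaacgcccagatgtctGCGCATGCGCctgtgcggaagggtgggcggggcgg
Atp5k: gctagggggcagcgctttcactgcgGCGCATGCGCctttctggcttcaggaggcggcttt
Cox6a1: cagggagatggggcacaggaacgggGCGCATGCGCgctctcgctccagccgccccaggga
Atp5g2: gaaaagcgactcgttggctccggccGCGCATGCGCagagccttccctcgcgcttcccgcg
Ndufa11: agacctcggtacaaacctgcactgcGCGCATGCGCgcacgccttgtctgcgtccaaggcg
The match is to letters only, and binding was not measured.

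The libraries held 52940832 to 63032175 counts, and the members took 0.441% to 0.565% of the scaled counts of a library. Levels are given as counts per 1000000 of the TMM-scaled library size (CPM). The lymphatic markers Prox1 and Lyve1 were at 380.4 to 779.2 and 1803 to 2994 CPM, and the summed level of 18 lymphatic markers was 15490 to 19018 CPM in naive and 13094 to 16851 CPM in tumour libraries. In the edgeR test described below, the log2 fold change was -0.45 for Prox1 (adjusted p = 0.358) and 0.41 for Lyve1 (adjusted p = 0.223). Of the 18 lymphatic markers, 8 had positive fold changes, 1 was called higher (Sox18, adjusted p = 0.041) and 0 lower. Markers of other skin cell types were summed in the same way. The 12 blood endothelial markers, with Emcn in this list and the lymphatic one, summed to 1070 to 1264 CPM in naive and 1159.5 to 1290 CPM in tumour libraries. Of the 9 tested, the edgeR test described below called Selp higher in tumour (adjusted p = 0.022) and Efnb2 lower (adjusted p = 0.045), and 7 did not pass. The 16 fibroblast markers summed to 687.6 to 1278 CPM in naive and 1854 to 18712 CPM in tumour libraries, 15 myeloid markers to 195.6 to 288.5 and 495.1 to 894.7 CPM, 13 melanocyte markers to 227.3 to 260.9 and 361.2 to 744.9 CPM, and 11 keratinocyte markers to 5.64 to 67.1 and 43.2 to 135.2 CPM. Ednrb and Gpnmb made up 92.5% to 99.3% of the melanocyte sum in naive libraries, where Dct, Tyr, Tyrp1, Mlana and Sox10 were each at 0 to 0.0859 CPM. Dpp4 of the fibroblast list, Ptprc, Emr1 and Itgam of the myeloid list, Mlana of the melanocyte list and Lor of the keratinocyte list were at 0 in every naive library, and Lor was at 0 in every tumour library too. By edgeR, 2 of 15 tested fibroblast markers were called higher in tumour (Pdgfra, adjusted p = 0.011, and Mfap5, adjusted p = 0.036). Of the myeloid markers, 4 of 13 tested were called higher, of the melanocyte markers 2 of 11, and of the keratinocyte markers 0 of 9. In these 4 lists 0 were called lower. Of all tested genes, 0.899% were called higher and 0.803% lower. In such bulk libraries fewer cells of a type and less RNA per cell cannot be told apart.

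No OXPHOS gene passed the test between tumour and naive libraries, while small positive differences predominated. Of 90 entries, 83 were tested, and edgeR's quasi-likelihood test called 0 higher and 0 lower at an adjusted p under 0.05, beside 0.899% of all 13453 tested genes called higher and 0.803% called lower. At an unadjusted p under 0.05, 9 of the 83 members were higher and 0 lower, beside 9.1% and 7.83% of all genes. DESeq2, which tested 87 members, called 3 higher (Ndufa3, Ndufa10 and Ndufb5) and 0 lower. That is a smaller share than over all genes, of which it called 6.83% higher and 4.08% lower. With limma-voom 0 were called in either direction (0.736% of all genes higher and 1.26% lower). The fold change was positive for 72 of 83 members (86.75%), beside 52.5% of all tested genes. The median log2 fold change was 0.25, beside 0.04 over all tested genes. In 16 of 83 members every tumour library lay above every naive library, which is 19.3% beside 9.57% of all genes. In 0 members every tumour library lay below, beside 8.46% of all genes.

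Summed over the members of a complex, the groups were set apart only for complex III. The complex III sum was 630.1, 635.2 and 504.6 CPM in naive replicates 1, 2 and 3, and 647.8, 709.5, 735.5 and 640.9 CPM in tumour replicates 1 to 4. All 4 tumour libraries lay above the 3 naive ones, the lowest by a few CPM. The complex I sum was 1774, 1613 and 1456 CPM in naive and 1622, 1967, 1847 and 1825 CPM in tumour libraries, and the complex IV sum 659.5, 621.6 and 489.6 CPM in naive and 616.7, 722.7, 716.6 and 677 CPM in tumour libraries. In both, tumour replicate 1 lay inside the naive range. The complex II sum was 580.2 CPM ± 41.3 (SD, n = 3) in naive and 590.2 CPM ± 42.8 (SD, n = 4) in tumour libraries, and the complex V sum 1592 CPM ± 154.1 and 1681 CPM ± 65.3, and here too the groups overlapped. The log2 ratio of the group means of these sums was 0.17 for complex I, 0.02 for II, 0.21 for III, 0.21 for IV and 0.08 for V. The median log2 fold change of single members was 0.22, 0.23, 0.37, 0.23 and 0.27 in the same order. A sum follows the few most abundant genes, and a median weighs all members alike. Members were grouped by name, so the sums and medians also hold assembly factors and tissue isoforms. Cox4nb (31.6 to 71.2 CPM) is thus counted under complex IV, and Atp5sl (13.8 to 31 CPM, now named Dmac2) under complex V. Ndufa4 (26.9 to 44.8 CPM), now placed at complex IV, is counted under complex I among its accessory subunits. Without assembly factors, Cox4nb and tissue isoforms, the median log2 fold change over all complexes was 0.25.

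**Figure D1:**
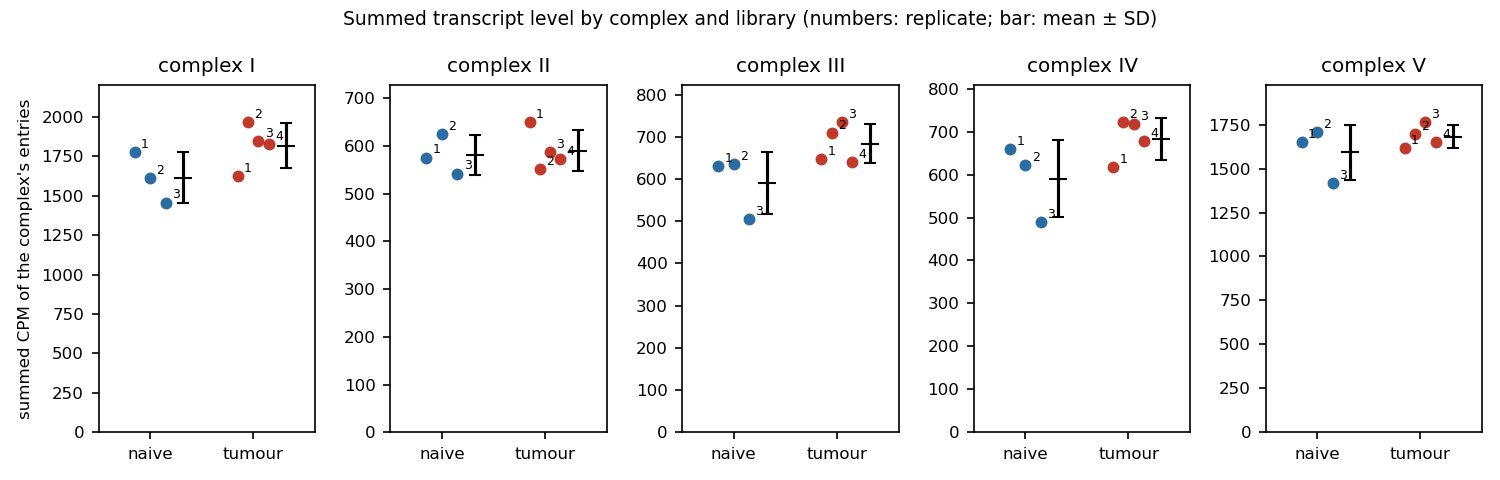
Summed CPM of the members of each complex (y axis, from 0) in each library (points, numbered by replicate), with the mean and SD of each group as a bar. The complex III points of the 4 tumour libraries lie above the 3 naive ones, and naive replicate 3 is the lowest library in all 5 panels.

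In complex I, the NADH dehydrogenase, the accessory subunits had a larger median difference than the catalytic core, and no test of that contrast was made. The 7 core subunits tested, which carry the flavin and iron-sulfur clusters, had a median log2 fold change of 0.08, and the 30 accessory subunits had 0.30. The groups were apart in 0 of the 7 core subunits and in 9 of the 30 accessory subunits, beside 9.57% of all genes. The core transcripts were longer, with a median of 1623 bases against 718, and length moved with the fold change. Ndufv1, the core subunit that binds NADH, had the highest level per length of the complex (152.1 CPM per kb). It was at 288.7, 243.9 and 249.6 CPM in naive and 243.5, 288, 234.5 and 220.5 CPM in tumour libraries. Tumour replicate 2 lay within the naive range and the other tumour libraries below its lower end, and the log2 fold change was -0.08 (adjusted p = 0.845, SE 0.14). Ndufb10, of the membrane arm, had the most negative fold change of the complex among genes with a mean log2 CPM of 4 or more. It was at 121, 96.5 and 84.8 CPM in naive and 73.4, 107, 88.4 and 88.3 CPM in tumour libraries, with overlapping groups and a log2 fold change of -0.17 (adjusted p = 0.731, SE 0.19). Ndufb8, also of the membrane arm, was at 81.2, 82.6 and 64.1 CPM in naive and 64.8, 91, 91.7 and 88.6 CPM in tumour libraries. Tumour replicate 1 was level with the lowest naive library, and the log2 fold change was 0.15 (adjusted p = 0.78, SE 0.18).

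Ndufs4, an accessory subunit of the peripheral arm whose loss in mice causes a Leigh-like encephalopathy, had the largest fold change among the OXPHOS genes with a mean log2 CPM of 4 or more. It was at 15.1, 10.2 and 8.37 CPM in naive and 15.7, 24.4, 32.7 and 17.4 CPM in tumour libraries. Every tumour library was above every naive one, though tumour replicate 1 cleared naive replicate 1 narrowly. The log2 fold change was 1.01 (SE 0.37), and the adjusted p of 0.211 did not pass. The gene lies on chromosome 13 at 114287795 to 114388258 (GRCm38, minus strand).

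A group of further complex I genes was singled out after their values were seen, because DESeq2 called them. It called a smaller share of members than of all genes. Ndufa3, a small membrane arm subunit on chromosome 7 at 3617373 to 3620327 (plus strand), was at 6.2, 7.07 and 6 CPM in naive and 10.8, 17.4, 15.9 and 13.9 CPM in tumour libraries. The naive libraries lay close together, and the lowest tumour library was well above them. Its log2 fold change was 1.18 (SE 0.36), with an adjusted p of 0.144 by edgeR, 0.00513 by DESeq2 and 0.148 by limma-voom, and over all alternatives with a test edgeR or limma gave 0.0316 to 0.632. Ndufa10, at the matrix face, was at 51.8, 38.5 and 44 CPM in naive and 59.1, 74.8, 62.6 and 76 CPM in tumour libraries. Ndufb5, of the membrane arm, was at 38.4, 41.1 and 29.3 CPM in naive and 50.8, 63.1, 55.8 and 50.2 CPM in tumour libraries. In both genes the groups were apart, with log2 fold changes of 0.61 (SE 0.19) and 0.60 (SE 0.20), adjusted p of 0.149 and 0.169 by edgeR, and 0.0203 and 0.0333 by DESeq2. The other complex I entries with groups apart were Ndufa1, Ndufb6, Ndufc2, Ndufs5, Ndufv3 and the assembly factor Ndufaf1, with log2 fold changes from 0.42 to 0.57. In Ndufs5 the margin was within rounding, with 5.86 CPM in both naive replicate 1 and tumour replicate 1.

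**Figure D2:**
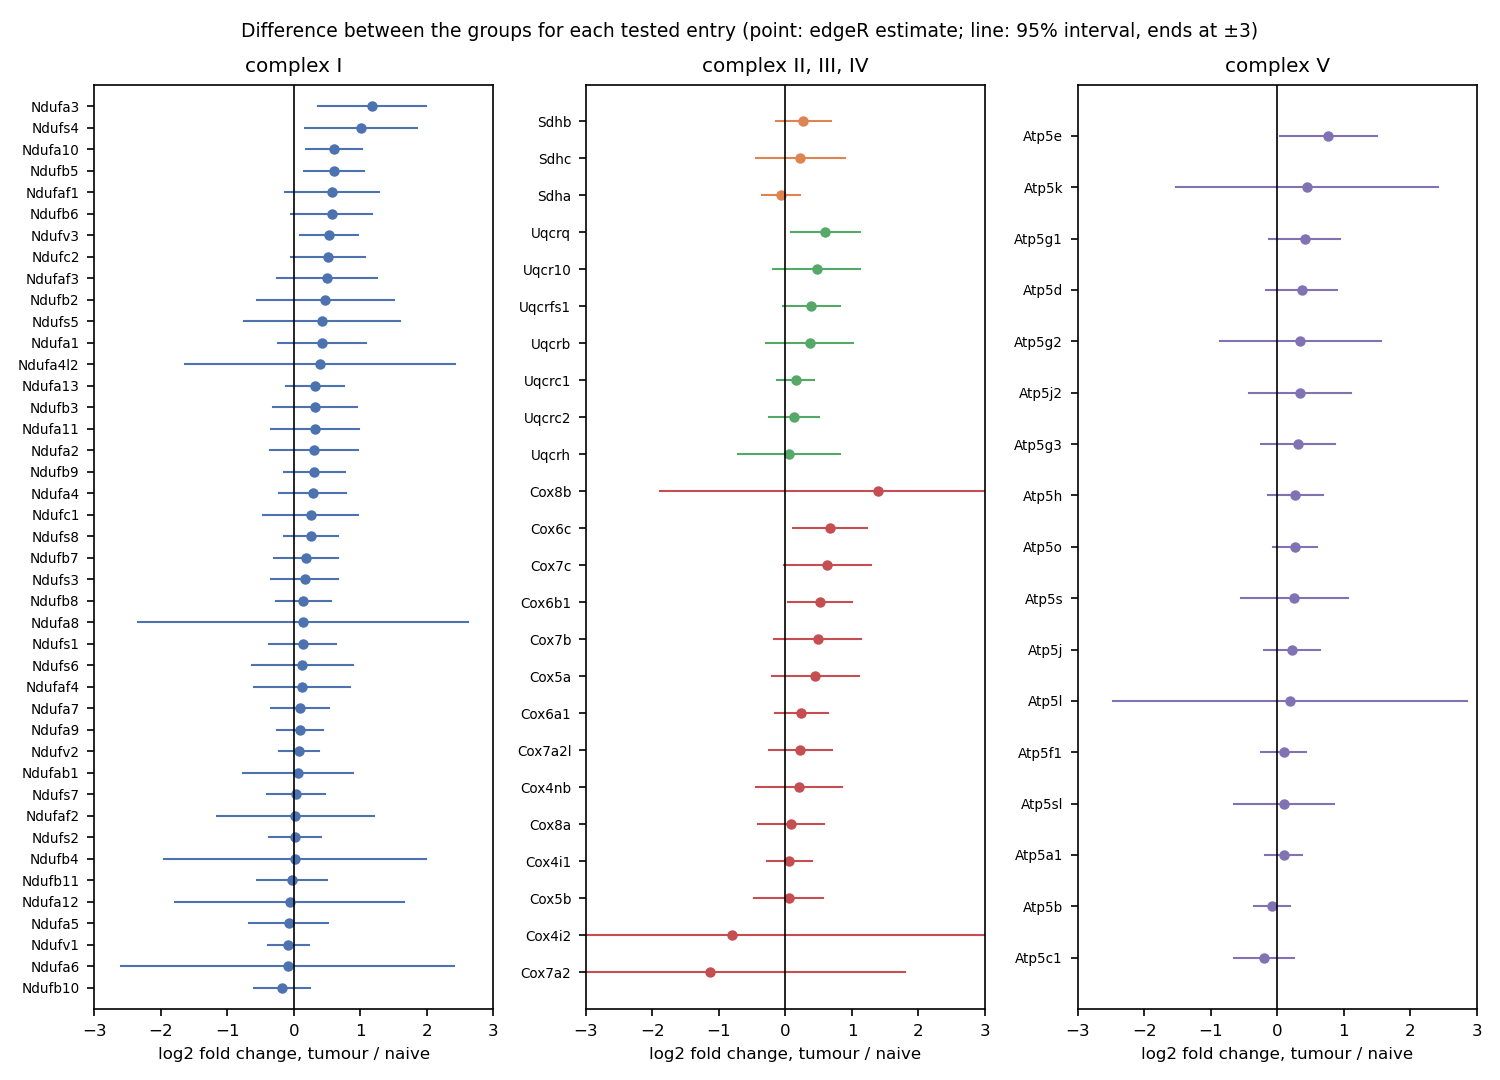
Log2 fold change of each tested member (point, x axis, tumour over naive) with its 95% interval (line, drawn up to 3 in either direction), by complex. Most points lie to the right of 0, and the intervals that clear 0 include Ndufa3, Ndufs4, Ndufa10, Ndufb5, Uqcrq, Cox6c and Atp5e.

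Complex II, succinate dehydrogenase, also works in the tricarboxylic acid cycle. Sdha, the flavoprotein that oxidises succinate, was at 403.9, 463.6 and 438.6 CPM in naive and 475, 368.3, 415.9 and 405.4 CPM in tumour libraries. The tumour libraries spanned the whole naive range, and the log2 fold change was -0.07 (adjusted p = 0.866, SE 0.13). Sdhb, the iron-sulfur subunit, was at 148.5, 141.8 and 90 CPM in naive and 155.2, 156.3, 153.9 and 145.9 CPM in tumour libraries. The tumour libraries agreed closely while naive replicate 3 was far below the other naive ones, and the log2 fold change was 0.27 (adjusted p = 0.532, SE 0.18). The membrane anchor Sdhc was at 22.7, 18.4 and 13.1 CPM in naive and 20, 26.6, 17.6 and 20.4 CPM in tumour libraries, with overlapping groups and a log2 fold change of 0.23 (adjusted p = 0.789, SE 0.29). The other anchor, Sdhd, had only 2 to 9 counts in a library and was not tested.

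In complex III, the cytochrome bc1 complex, all 7 tested members had positive fold changes, beside 52.5% of all tested genes. Uqcrq, the ubiquinone-binding small subunit on chromosome 11 at 53427922 to 53430831 (minus strand), was at 30, 28.1 and 20.8 CPM in naive and 32.5, 40.3, 46.4 and 40.6 CPM in tumour libraries. All tumour libraries were above all naive ones, with a log2 fold change of 0.60 (SE 0.23) and an adjusted p of 0.227. Uqcrfs1, the Rieske iron-sulfur protein, was at 80.2, 79.6 and 56.7 CPM in naive and 92.4, 110, 97 and 77.9 CPM in tumour libraries. Tumour replicate 4 fell just below naive replicates 1 and 2, and the log2 fold change was 0.39 (adjusted p = 0.354, SE 0.19). Uqcrc1, core protein 1, had the highest level per length of the complex (219.4 CPM per kb). It was at 354.3, 366 and 303 CPM in naive and 355.5, 386.8, 420.2 and 352.8 CPM in tumour libraries, with overlapping groups and a log2 fold change of 0.15 (adjusted p = 0.632, SE 0.13). Uqcrh, the hinge protein, varied most among the tumour libraries relative to its level, at 17.4, 13.2, 24.1 and 30 CPM against 22.7, 23 and 15.8 CPM in naive ones, for a log2 fold change of 0.05 (adjusted p = 0.967, SE 0.34).

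In complex IV, cytochrome c oxidase, the groups were apart for Cox6b1, Cox6c and Cox7c, none of which passed the test. These are 3 of the 14 tested entries (21.4%), beside 9.57% of all genes. Cox6c was at 20.7, 17.7 and 17.5 CPM in naive and 22.8, 33.7, 28.3 and 34 CPM in tumour libraries. Tumour replicate 1 was the lowest tumour library and still above all naive ones, and the log2 fold change was 0.67 (adjusted p = 0.208, SE 0.25). Cox6b1, the common isoform of the subunit that faces cytochrome c, was at 34.2, 37.4 and 26.4 CPM in naive and 37.9, 49.5, 49 and 51.4 CPM in tumour libraries, with a log2 fold change of 0.52 (adjusted p = 0.258, SE 0.21). Cox7c, named after its values were seen, was at 12.8, 11.8 and 9.37 CPM in naive and 15.9, 16.4, 20.2 and 17.7 CPM in tumour libraries, with a log2 fold change of 0.63 (adjusted p = 0.317, SE 0.29). Of the Cox6c and Cox7c transcripts, 21.1% and 53% of 50-base stretches also occur in transcripts of other genes, so reads there may have been split or lost in counting. Cox4i1, the common isoform of the largest nuclear subunit, had the highest level per length of all members (328.1 CPM per kb). It was at 285.2, 237 and 193.9 CPM in naive and 240.1, 253.9, 257.4 and 243.5 CPM in tumour libraries, all within the naive range, with a log2 fold change of 0.06 (adjusted p = 0.897, SE 0.15). Cox5a was at 48.5, 35.1 and 31.1 CPM in naive and 30.6, 57.5, 63.7 and 57.1 CPM in tumour libraries, so that tumour replicate 1 lay below all naive libraries and the other tumour libraries above them. Cox6a1, Cox7b and Cox8a, common isoforms of small subunits, and the supercomplex factor Cox7a2l had log2 fold changes of 0.24, 0.49, 0.08 and 0.22, with adjusted p from 0.463 to 0.911. Cox5b had 0.05 (adjusted p = 0.949).

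In complex V, ATP synthase, the fold changes of the large catalytic subunits were near 0 and those of several small subunits were positive. By class, the 8 core subunits had a median log2 fold change of 0.33 and the 7 accessory subunits 0.27, an order opposite to that in complex I. The alpha subunit Atp5a1 was at 495.8, 585.9 and 487.3 CPM in naive and 609.7, 542, 563.3 and 521.5 CPM in tumour libraries, and the catalytic beta subunit Atp5b at 356.7, 377.4 and 356.9 CPM in naive and 325.9, 319.9, 395.5 and 336.6 CPM in tumour libraries. Groups overlapped for both, with log2 fold changes of 0.10 (adjusted p = 0.778, SE 0.12) and -0.08 (adjusted p = 0.826, SE 0.12). Atp5c1, the gamma subunit of the rotating stalk, was at 207.5, 200.5 and 117.4 CPM in naive and 142.5, 155.9, 155.1 and 154.7 CPM in tumour libraries. All tumour values lay between naive replicate 3 and the other naive replicates, and the log2 fold change was -0.20 (adjusted p = 0.694, SE 0.20). Atp5e, the epsilon subunit of the same stalk, was named after its values were seen. It was at 10.6, 11.3 and 7.02 CPM in naive and 14.9, 14.5, 17.1 and 19.4 CPM in tumour libraries. The groups were apart, with a log2 fold change of 0.77 (adjusted p = 0.271, SE 0.32). Atp5k, subunit e of the membrane part, was also apart, at 1.84 to 2.36 CPM in naive and 2.63 to 3.45 CPM in tumour libraries (log2 fold change 0.45, SE 0.87, adjusted p = 0.865). Atp5e and Atp5k are 2 of the 17 tested entries of complex V (11.8%), near the 9.57% of all genes. Atp5g1, which with Atp5g2 and Atp5g3 codes for the proton ring, showed a log2 difference of 0.41 (adjusted p = 0.437, SE 0.23). All 50-base stretches of the Atp5g2 transcript and 66% of those of Atp5g1 occur in other transcripts.

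**Figure D3:**
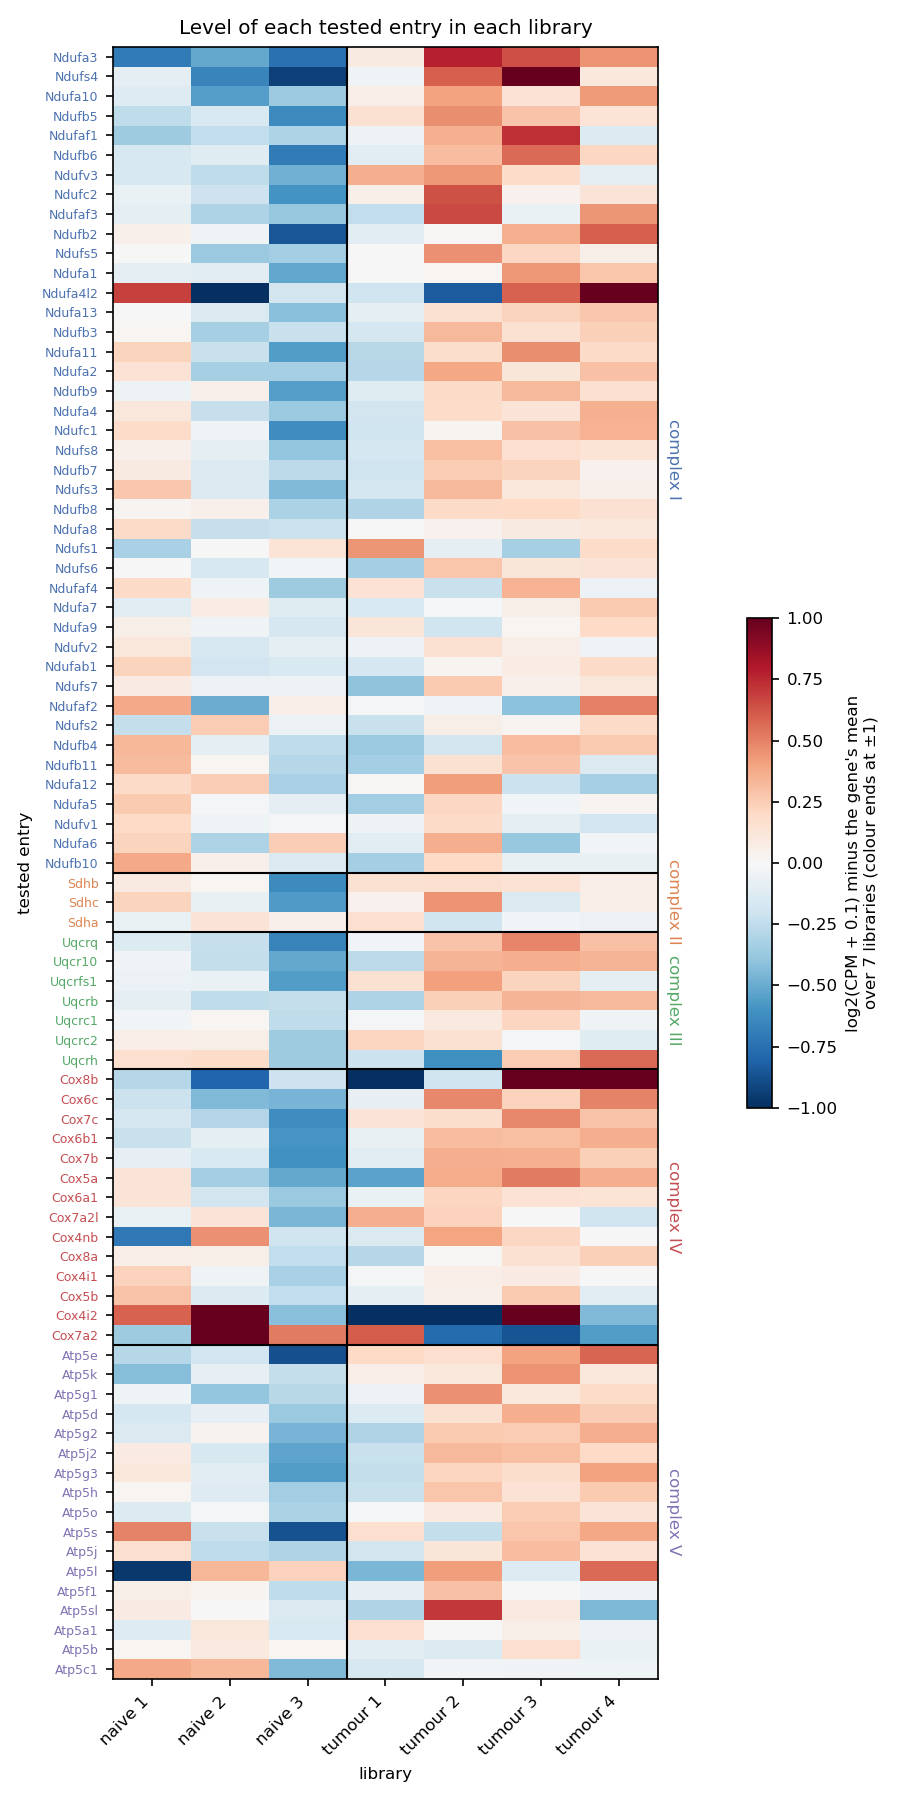
Each tested member (rows, by complex and falling fold change) in each library (columns), coloured by log2(CPM + 0.1) minus the mean of the gene over the 7 libraries. Most rows are blue in naive replicate 3 and red in tumour replicates 2 to 4, and tumour replicate 1 is paler than the other tumour libraries.

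Tissue-restricted isoforms other than Ndufa4l2 were at about 1 CPM or less in every library. Cox6a2 of heart and skeletal muscle, and Cox7b2 and Cox8c of testis, had 0 counts in all 7 libraries, where a count of 0 allows up to 0.0479 to 0.0521 CPM. Cox6b2 of testis ranged from 0 to 0.384 CPM and Cox7a1 of muscle from 0 to 0.498 CPM. The muscle isoform Cox8b was at 0.139 to 0.259 CPM in naive and 0.0828 to 1 CPM in tumour libraries, at most 2.65% of the CPM of its common counterpart Cox8a. Cox4i2, the lung and hypoxia isoform, was at 0.24, 0.434 and 0.0691 CPM in naive and 0, 0, 0.495 and 0.0668 CPM in tumour libraries, at most 0.192% of Cox4i1. Ndufa4l2, a hypoxia-inducible paralog of Ndufa4, was the only isoform of this kind above 1 CPM in every library. It was at 4.91, 1.28 and 2.65 CPM in naive and 2.62, 1.66, 4.58 and 6.63 CPM in tumour libraries, which is 4.18% to 14.8% of the CPM of Ndufa4. The groups overlapped, with log2 fold changes of 0.39 (adjusted p = 0.888, SE 0.89) for Ndufa4l2 and 0.28 (adjusted p = 0.611, SE 0.22) for Ndufa4, which is now placed at complex IV.

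Common subunits of one complex differed widely in level per length, although each complex holds them in fixed copy numbers. Per kb of the principal GENCODE transcript, complex I subunits ran from 1.44 CPM (Ndufa8) to 152.1 CPM (Ndufv1) with a median of 36.5, and complex V subunits from 1.9 CPM (Atp5l) to 220 CPM (Atp5a1) with a median of 52.2. In all, 6 common subunits had a mean under 2 CPM: Atp5l, Cox7a2, Ndufa6, Ndufa8, Sdhd and Uqcr11. Uqcr11 had 1 count in all 7 libraries together. Cox7a2 was at 0.361, 1.48 and 0.743 CPM in naive and 0.794, 0.246, 0.224 and 0.301 CPM in tumour libraries, for a log2 fold change of -1.13 (adjusted p = 0.751, SE 1.29). Of these 6 genes, 4 (Cox7a2, Ndufa6, Ndufa8 and Sdhd) share no 50-base stretch with another annotated gene, and how the authors' counting treated them was not tested.

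**Figure D4:**
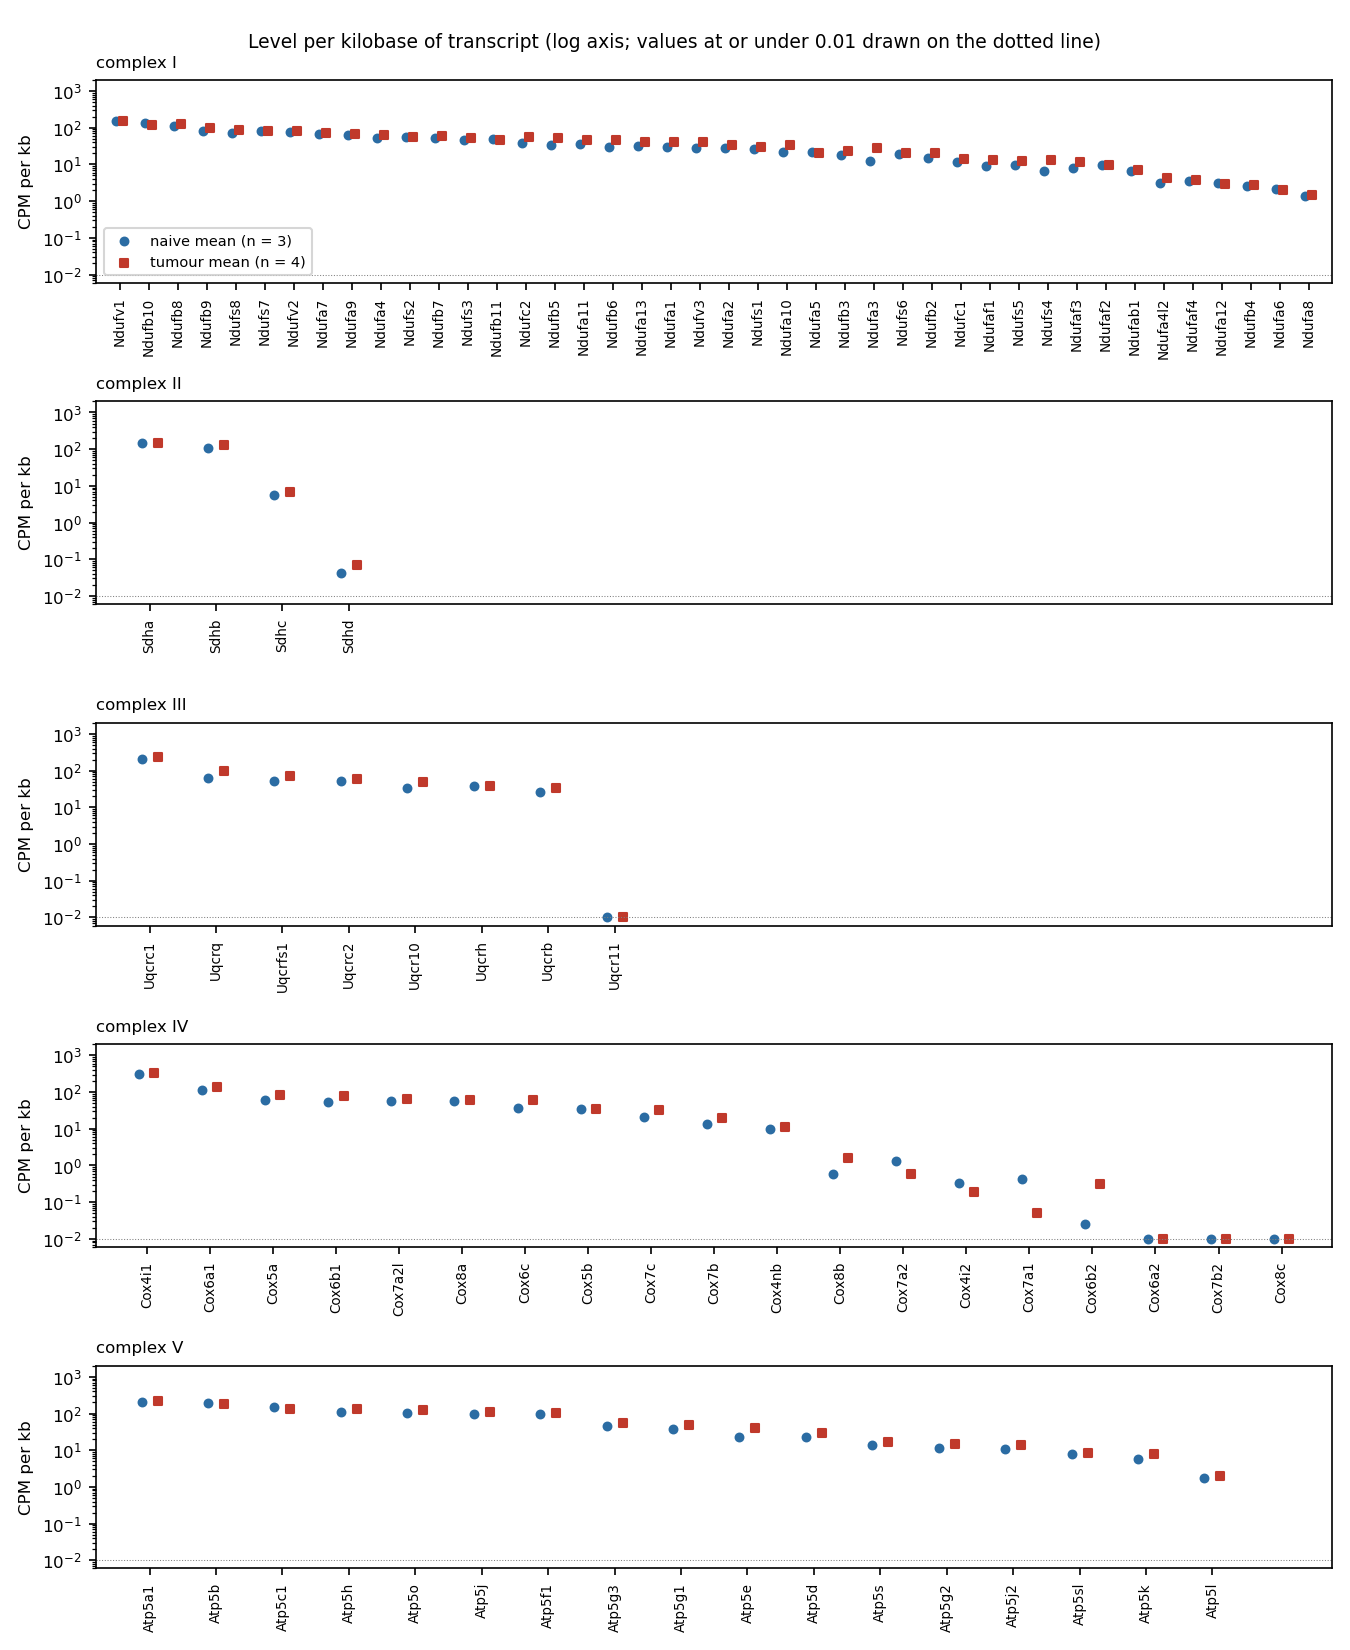
Mean CPM per kb of transcript (y axis, log scale) of every member in naive (circles, n = 3) and tumour libraries (squares, n = 4), ordered by level within each complex. The levels of both groups lie close together for abundant members, while within a complex the members run over several powers of 10, down to the dotted line at 0.01.

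The positive shift was not even across libraries. Naive replicate 3 was the lowest naive library in 59 of 83 tested members and naive replicate 1 the highest in 55. Tumour replicate 1 was the lowest tumour library in 56 of 83. Relative to each gene's mean over the libraries, the median log2 level of the members was 0.02, -0.10 and -0.34 in naive replicates 1, 2 and 3, and -0.11, 0.20, 0.18 and 0.15 in tumour replicates 1 to 4, while the median of all tested genes was 0.02 to 0.06 in each library. Without naive replicate 3 the median log2 fold change of the members was 0.14, beside 0.06 over all genes, and without naive replicate 1 it was 0.37, beside 0.06. Without tumour replicate 1, 37 members had groups apart, beside 13.6% of all genes, and without naive replicate 1 it was 30, beside 13.2%. On lane 8, which holds 1 library of each group, the median log2 difference of the members was 0.55 beside 0.00 over all genes, and the pair is naive replicate 3 and tumour replicate 3. The other lanes hold samples of 1 group only. Fibroblast markers moved with the tumour group, at 2909, 1854, 6326 and 18712 CPM in tumour replicates 1 to 4. The members summed to 5151, 5645, 5652 and 5365 CPM in the same libraries. Myeloid and melanocyte marker sums were also higher in every tumour library than in every naive one. The part of other cell types in the OXPHOS values was not tested.

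Transcript length moved with the difference between the groups. OXPHOS transcripts are short, with a median of 838 bases beside 2742.5 bases for all tested genes with a length, and 73 of the 83 tested members were among the shortest 3268 of 13068 genes, up to 1701 bases. In that length class the median log2 fold change was 0.27 for members and 0.19 for the other genes, and groups were apart, tumour above naive, for 20.5% of members and 13.6% of the others. For genes other than members, the median was 0.19 in the shortest class and 0.09, -0.01 and -0.16 in 3 longer classes of like size. When log2 CPM were centred in each library within 20 bins of length, the median of the members was -0.01 beside -0.05 over all genes, 41 of 83 were positive, and limma called 1 member higher (Ndufa3, log2 difference 0.84, adjusted p = 0.0316) and 0 lower, beside 1.93% and 1.97% of all genes. The centring subtracted the median level of a bin, not its median fold change, and the 2 differed. Cox6c (503 bases) went from 0.67 to 0.35, while the shortest bin had a median log2 fold change of 0.15. Cytosolic ribosomal genes went from a median of -0.04 to -0.33. How much of the shift of the members goes with length was thus not measured.

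**Figure D5:**
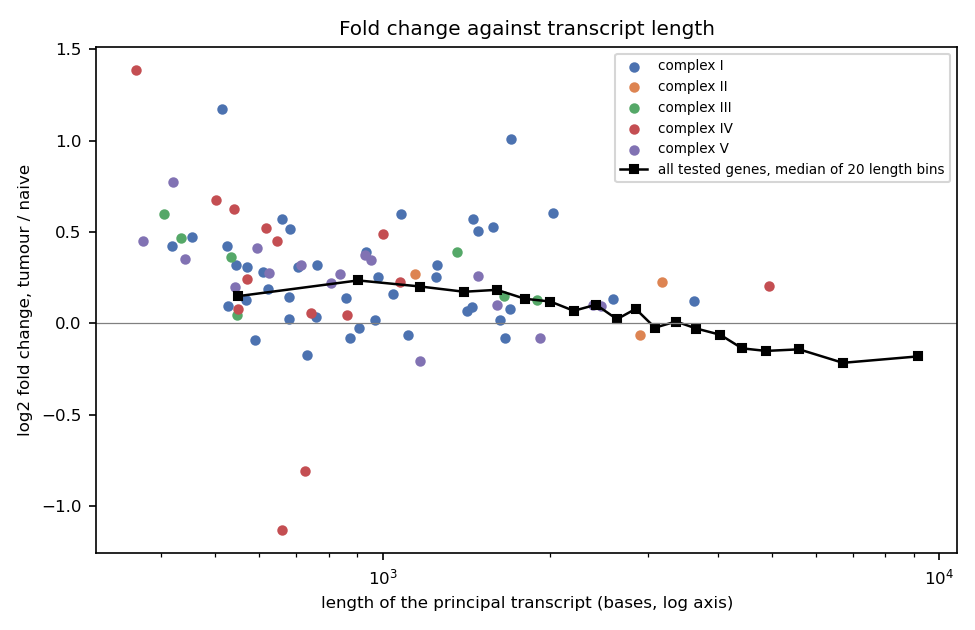
Log2 fold change (y axis, tumour over naive) of each tested member against the length of its principal transcript (x axis, bases, log scale), coloured by complex, with the median of all tested genes in 20 length bins as black squares. The black line falls from above 0 for short transcripts to below 0 for long ones, and most members lie at the short end.

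In other mitochondrial gene lists, written with earlier results of these data known, edgeR called 0 of 173 tested genes that are not members. At an unadjusted p under 0.05, 14 were higher (8.09%, beside 9.1% of all genes) and 4 lower (2.31%, beside 7.83%). DESeq2 called 4 of them higher (2.31%, beside 6.83% of all genes) and 1 lower (0.578%, beside 4.08%), and limma-voom 0. Their median log2 fold change was 0.24, with 127 of 173 positive (73.4%, beside 52.5% of all tested genes). Their median was 0.05 when log2 CPM were centred by length. The mitochondrial ribosome, which translates the subunits encoded in mitochondrial DNA, had a median of 0.26 over 75 genes, with 64 positive and a length-centred median of 0.06. In 12 of them (16%) groups were apart, tumour above naive, beside 9.57% of all genes and 13.6% of the other genes in the shortest length class. The 18 tested genes of the tricarboxylic acid cycle and pyruvate dehydrogenase, which supply NADH and succinate, had a median of 0.21, with 13 positive. For assembly factors, the median was 0.23 over 16 genes for complex I (4 of them members), 0.29 over 4 for complex II, 0.19 over 6 for complex III, 0.26 over 23 for complex IV and 0.34 over 6 for complex V. Electron carriers and coenzyme Q enzymes had 0.25 over 15 genes, with 8 positive, and -0.03 after length centring. Regulators of mitochondrial biogenesis had a median of -0.17, with 5 of 14 positive, and -0.28 after length centring. Among them Nrf1 was at 42.4, 30.9 and 37.5 CPM in naive and 19.5, 31.2, 60.4 and 17.8 CPM in tumour libraries, a spread wider than the difference between the groups (log2 fold change -0.20, SE 0.42, adjusted p = 0.878). Cytosolic ribosomal proteins, whose transcripts are also abundant and short, had a median of -0.04 over 81 genes, with 34 positive and 0 called, and -0.33 after length centring.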

How the data were processed

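The members and all gene lists were chosen with earlier results of these data known. Per the labels, a Qiagen RNeasy Micro kit yielded the RNA and Takara's SMART-Seq v4 low-input chemistry the libraries. It does not mark strand, so overlapping and antisense genes cannot be told apart. The authors deposited raw counts per gene and normalized values on a log2 scale, and the latter served in 1 alternative only. Trimmomatic 0.38 and mm10 were used, per the submitters' processing notes. The aligner, counter, annotation and normalization were not given in the sources used here. Of 26608 entries, 25 whose symbol had become a date (0.174% to 0.236% of the counts of a library) were left out.

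Counts were tested in R 4.3.3 with edgeR 4.0.16 (filterByExpr, 13453 genes, TMM factors 0.924 to 1.13, robust quasi-likelihood test, Benjamini-Hochberg over all genes, threshold 0.05). The common biological coefficient of variation was 0.749. Alternatives used DESeq2 1.42.0, limma 3.58.1, other scalings and filters, covariates, a length correction, and each library left out in turn. Scripts were tested on simulated data. A floor of 3 counts is 0.0479 to 0.0521 CPM and covers counting error only. Positions and principal transcripts come from GENCODE M21 (GRCm38), promoters from RefSeq, and older symbols were matched through RefSeq synonyms. Genes were named by rule: those past the threshold, the 3 highest per length and the largest and smallest fold change (mean log2 CPM of 4 or more) of each complex, tissue isoforms with their counterparts, and all Sdh genes. Other named members are said to be chosen after their values were seen, or form the set with groups apart or the set of low counts. Nrf1 and several cell type markers that did not pass the threshold were named outside these rules. Replicate numbers showed no sign of pairing the libraries: same-numbered deviations correlated at -0.006, -0.037 and -0.021, and tumour replicate 4 has no partner. Deviations from a group mean sum to 0 for each gene, so this check cannot exclude pairing.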

Additional observations from a re-analysis of the deposited data

Results flagged for a closer look

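Among 35 values checked in the 4 tumour libraries (named members, the complex sums and the sum over all members), 4 had a library apart from the others by the ratio of its gap to the range of the group, and chance flags about 1 in 20. Atp5c1 was at 142.5 CPM in tumour replicate 1 and at 154.7 to 155.9 CPM in the other tumour libraries, a ratio of 0.917. Ndufb8 was at 64.8 CPM in tumour replicate 1 and at 88.6 to 91.7 CPM in the others, a ratio of 0.883. Cox4i2 was at 0.495 CPM in tumour replicate 3 and at 0 to 0.0668 CPM in the others, a ratio of 0.865. Cox7a2 was at 0.794 CPM in tumour replicate 1 and at 0.224 to 0.301 CPM in the others, a ratio of 0.865. The Cox4i2 and Cox7a2 values rest on few counts.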

How the results depend on the processing

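Of 29 named members tested, none passed the threshold. With lane as a term, the sign of the log2 fold change turned for 4 of them. These were Atp5c1 (to 0.40), Atp5b (to 0.15), Ndufb10 (to 0.06) and Cox4i2 (to 2.80). The same 4 turned on lane 8 only, which is the same comparison and not a separate check. The other lanes hold samples of 1 group only. With lane as a term, the group difference thus comes from naive replicate 3 and tumour replicate 3 alone. Naive replicate 3 was the lowest naive library in 59 of 83 tested members. The sign turned for 9 named members with length centring (Cox4i1 to -0.235, Cox5b to -0.29, Uqcrh to -0.31, and Atp5a1, Cox6a1, Cox8a, Ndufa4, Ndufb8 and Uqcrc1). It turned for Sdha with upper-quartile scaling and for Uqcrh with the replicate block. On leaving out naive replicates 1, 2 or 3 or tumour replicates 3 or 4, it turned for 1 to 4 of Cox4i1, Cox5b, Cox8a, Ndufv1 and Uqcrh. The count of members called higher was 0 except for DESeq2 (3) and the length-centred values (1), and the count called lower was 0 throughout. The median log2 fold change of all members and of complexes I, III, IV and V moved to 0.55, 0.51, 0.61, 0.61 and 0.58 with lane as a term. The values on lane 8 only (1 library a group, no test) were the same, because both settings compare the same pair of libraries. With length centring the medians moved to -0.0077, -0.0228, 0.0315, 0.0653 and -0.042. Complex III was 0.20 on the deposited log2 values. Leaving out 1 library called 0 members in every case, beside 0.0422% to 0.795% of all genes called higher and 0.00703% to 0.67% called lower. With shares this low, a count of 0 does not set the members apart from other genes. The medians were 0.14 to 0.37 for all members, 0.15 to 0.36 for complex I, 0.04 to 0.40 for II, 0.25 to 0.42 for III, 0.14 to 0.38 for IV and 0.19 to 0.37 for V. Groups were apart, tumour above naive, in 16 to 37 members (19.3% to 44.6%, a count chosen after seeing the data), beside 11.8% to 13.6% of all genes. Upper-quartile scaling moved the median of all genes to 0.11 and that of the members to 0.32. With the replicate block, 0 members were called and their median was 0.24. Over all genes, calls numbered 229 in the reported fit, 1516 with DESeq2, 3 with the block and 0 with lane as a term. The rarest members were estimated loosely: with an SE of 1.29 for Cox7a2 and 1.96 for Cox4i2 (log2), a difference of the size seen in other members was not detectable.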
